A study of Mus musculus with 10 samples.

Results

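Telomerase RNA, the telomerase protein, the proteins of the H/ACA particle that holds the RNA and the shelterin proteins that coat telomeres were described in mouse embryonic stem cells. The members were 10 genes fixed by name: Terc, Tert, Dkc1, Nop10, Nhp2, Gar1, Terf1, Terf2, Tinf2 and Pot1a. Each was matched to its Ensembl identifier through GENCODE vM21 names, and all 10 were found among the 55487 genes of the deposited tables. The series maps R-loops in the line E14 and holds 10 samples in 6 groups. Its 7 R-loop samples are left aside. All values come from 3 RNA-seq replicates of untreated E14 cells, with no genetic change named in the labels. They were grown with 15% serum, LIF, 3 µM GSK inhibitor and 1 µM MEK inhibitor. With a single group, no condition could be compared, and each value is given with its spread over the 3 replicates. The labels do not say whether these came from separate cultures, so the spread may be technical.

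Telomerase lengthens chromosome ends by copying a short template in its RNA subunit, Terc, with the reverse transcriptase Tert. Dkc1, Nop10, Nhp2 and Gar1 bind the H/ACA domain of Terc and also every small nucleolar and Cajal body RNA of the H/ACA class, so their transcripts serve more than telomerase. Shelterin covers the telomere: Terf1 and Terf2 bind its double-stranded repeats, Pot1a binds the single-stranded overhang, and Tinf2 bridges them. Mouse embryonic stem cells keep telomerase active.

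Estimated counts summed to 11420425 in replicate 1, to 6467405 in replicate 2 and to 5787357 in replicate 3. All 7 pluripotency markers, Pou5f1, Nanog, Sox2, Zfp42, Esrrb, Klf4 and Tfcp2l1, had a mean of at least 16.6 TPM (a level scaled by gene length and by the library's total). None of 8 markers of differentiated cells (Sox17, Gata4, Gata6, T, Pax6, Sox1, Cdx2 and Eomes) reached a mean of 1 TPM, the highest being Eomes at 0.953, although 3 did with genes of effective length under 100 nt left out of the TPM total. Of 5 fibroblast markers, Thy1 alone reached a mean of 1 TPM, with 3.02, 3.30 and 1.19 TPM in replicates 1, 2 and 3. Col1a1 had 20, 8 and 3 counts, Col1a2 had 0, 0 and 2, and Col3a1 and Postn had 0 in every replicate. The libraries differed by gene length. Where genes averaged 100 counts or more and were split into 10 bins by length, the median log2 deviation from the shortest bin to the longest ran from -0.18 to 0.11 in replicate 1, from -0.04 to 0.06 in replicate 2 and from 0.24 to -0.15 in replicate 3.

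Terc is shown first, because its value depended on which record of the gene was read. In GENCODE vM21 it is an unspliced gene of 423 nt (ENSMUSG00000064796) on the minus strand of GRCm38, chr3:96414437-96414859. RefSeq gives 397 nt on the same strand, from 96414437 to 96414833, so the GENCODE record has 26 more bases at its 5′ end. A related gene, 1600017P15Rik, lies on the same chromosome at chr3:30595346-30595757. The first 150 and last 60 bases of both GENCODE transcripts are printed as DNA, 5′ to 3′, because the template and the ACA box lie there. Capitals near the start mark the longest run that matches the C-rich telomere strand, and capitals near the end mark an ACA box.
Terc, first bases: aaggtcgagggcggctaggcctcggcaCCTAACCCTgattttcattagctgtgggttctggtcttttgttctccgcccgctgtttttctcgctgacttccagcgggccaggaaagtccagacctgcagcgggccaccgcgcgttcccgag
1600017P15Rik, first bases: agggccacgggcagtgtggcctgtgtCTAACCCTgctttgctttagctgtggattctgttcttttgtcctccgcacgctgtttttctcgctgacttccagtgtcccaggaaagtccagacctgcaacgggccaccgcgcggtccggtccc
Terc, last bases: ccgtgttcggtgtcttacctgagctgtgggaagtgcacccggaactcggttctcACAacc
1600017P15Rik, last bases: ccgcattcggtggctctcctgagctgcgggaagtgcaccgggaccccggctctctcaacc

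The template run of Terc was 9 bases, CCTAACCCT, at positions 28 to 36 of the GENCODE record. That of 1600017P15Rik was 8 bases, CTAACCCT, at positions 27 to 34. Searched on the transcript strand alone, the 9-base run occurs in 22 of 19726 annotated transcripts of 300 to 500 nt (0.112%), and the 8-base run, which lies inside it, in 86 (0.436%). Terc had ACA from 6 to 4 bases before its end, the place of that box in H/ACA RNAs, and 1600017P15Rik did not, ending in tcaacc. The records aligned over 408 columns with 81.1% identity.

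The Terc record held few reads and none in replicate 2. Its estimated counts were 34.65, 0 and 46.6, or 4.47, 0 and 8.46 TPM, in replicates 1, 2 and 3. Replicate 2 is therefore apart from the other two. The limit of 3 counts used here is 0.464 CPM in replicate 2 (counts scaled by the library's total alone, not by length). It reflects depth alone and sets no bound where reads are divided between records. The counts in replicates 1 and 3 were not whole, which in this kind of estimate means that reads were divided with another record.

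The tables also hold an identifier of 397 nt, ENSMUSG00000118406, that no table used here pairs with a name or a position. It had 689.35, 457 and 651.4 estimated counts in replicates 1, 2 and 3, or 97.8, 96.3 and 129.9 TPM. Its length is that of Terc in RefSeq. Its counts added to those of the Terc record gave whole numbers in replicates 1 and 3, 724 and 698. In replicate 2 the Terc record had 0, so the sum of 457 was the identifier's own count. The tables were searched for such whole sums after the values were seen. Of 2709 genes with fractional counts in both replicates 1 and 3, 4 added to the Terc count gave whole numbers there within 0.015. They were this identifier, Rpsa, Gm11585 and Gm7517, and only this identifier had the length of 397 nt, which 39 genes in the tables share. How many such sums would arise without shared reads was not estimated. What the identifier stands for was not tested beyond these values, and it is called the unnamed identifier below. The 2 records of 1600017P15Rik, of which one is the transcript whose ends are printed, held 0 and 1 count in every replicate.

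**Figure D1:**
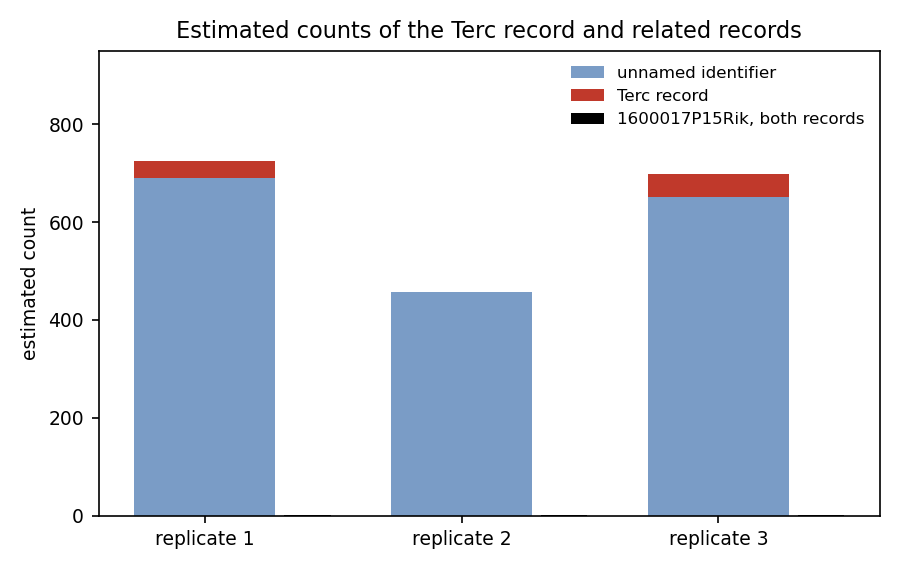
Estimated counts (y axis, from 0) in each RNA-seq replicate (x axis) of the Terc record (red) stacked on the unnamed identifier (blue), with both 1600017P15Rik records summed beside them in black. The unnamed identifier holds at least 93.3% of each stack, all of it in replicate 2, and 1600017P15Rik holds 1 count per replicate.

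The unnamed identifier held 95.2%, 100% and 93.3% of the summed counts in replicates 1, 2 and 3. Read alone, the Terc record had 4.31 ± 4.23 TPM (SD, n = 3). Summed, the pair had 102.3, 96.3 and 138.3 TPM, a mean of 112.3 ± 22.7 TPM (SD, n = 3). The lowest of these summed values is above the highest TPM of any protein member, 61.1 for Dkc1 in replicate 1. Against 9683 protein-coding genes with a mean of at least 1 TPM, the Terc record alone lay above 39.9% and the sum above 97.8%. Replicate 3 was the highest in both readings.

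Tert (ENSMUSG00000021611, chromosome 13, 73626911 to 73649843, plus strand), the reverse transcriptase, was the lowest protein member by TPM in every replicate. Its estimated counts were 274, 129 and 119 in replicates 1, 2 and 3, and its TPM 3.17, 3.06 and 1.97, a mean of 2.73 ± 0.66 TPM (SD, n = 3). It lay above 25.1% of the expressed protein-coding genes. By CPM its order over the replicates differed, at 24.0 (Wilson 95% interval 21.3 to 27.0), 19.9 (16.8 to 23.7) and 20.6 (17.2 to 24.6). These 3 intervals overlap, and like all intervals here they cover counting error only. Its effective length, the number of positions from which a fragment can start averaged over isoforms, was 3191 nt in replicate 1, 2220 nt in replicate 2 and 3177 nt in replicate 3. The range of 43.7% compares with a median of 10.1% over 9675 expressed protein-coding genes. With the effective length held at its mean over the replicates, an alternative chosen after seeing the data, Tert had 3.40, 2.73 and 1.88 TPM.

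**Figure D2:**
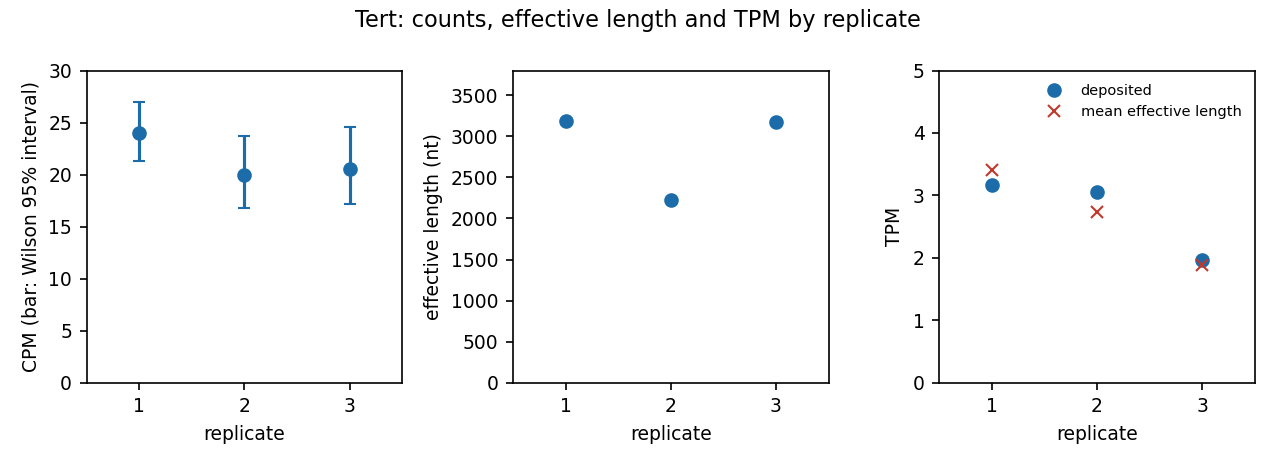
Tert in the 3 replicates (x axis): CPM with its Wilson 95% interval (left), effective length in nt (middle), and TPM as deposited (circles) or recomputed with the mean effective length (crosses; right). Replicate 2 has the shortest effective length, 2220 nt, and the lowest CPM, 19.9, but a deposited TPM of 3.06 that is close to the 3.17 of replicate 1.

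Terc and Tert were compared within each library. On the log2(TPM + 1) scale, used for all differences below, the Terc record minus Tert was 0.39, -2.02 and 1.67 in replicates 1, 2 and 3, a mean of 0.01 ± 1.88 (SD, n = 3). The sign differed between libraries, so no direction can be given for the record alone. With the unnamed identifier added, a choice made after seeing the data, the difference was 4.63, 4.58 and 5.55, a mean of 4.92 ± 0.55 (SD, n = 3), above 0 in 3 of 3 libraries. An exact sign-flip permutation test (two-sided) gave p = 0.25 for the sum and p = 1 for the record, where 0.25 is the smallest p that 3 libraries allow.

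The H/ACA proteins were the highest protein group. Dkc1 (ENSMUSG00000031403, chromosome X, 75095854 to 75109777, plus strand), dyskerin, the pseudouridine synthase of the particle, had 61.1, 47.0 and 53.1 TPM in replicates 1, 2 and 3. Its mean was 53.8 ± 7.07 TPM (SD, n = 3), above 95.2% of expressed protein-coding genes. Nhp2 (ENSMUSG00000001056, chromosome 11, 51619735 to 51623714, plus strand), a core protein of the particle, had 52.2, 49.5 and 54.0 TPM, a mean of 51.9 ± 2.26 TPM (SD, n = 3). The ranges of Dkc1 and Nhp2 overlap, and Dkc1 was the higher in 1 of 3 libraries.

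Nop10 (ENSMUSG00000027133, chromosome 2, 112261926 to 112263269, plus strand), a small protein held against dyskerin, had 39.6, 31.8 and 33.3 TPM, a mean of 34.9 ± 4.15 TPM (SD, n = 3). It was below Nhp2 in all 3 libraries with no overlap of ranges. Gar1 (ENSMUSG00000028010, chromosome 3, 129824912 to 129831396, minus strand), which joins the particle late in its assembly in place of Naf1, was the lowest of the group. It had 22.8, 16.7 and 10.98 TPM, a mean of 16.8 ± 5.92 TPM (SD, n = 3). Replicate 1 was thus about as far above the mean as replicate 3 was below it. By CPM the fall of Gar1 was smaller, at 27.6, 24.3 and 20.4 in replicates 1, 2 and 3.

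Transcript levels of the particle's genes were unequal, while its proteins were not measured. Dkc1 exceeded Nop10 by 0.61 ± 0.05 and Gar1 by 1.67 ± 0.44 in log2(TPM + 1) (SD, n = 3). The difference from Nop10 lay between 0.55 and 0.66 over the replicates, while that from Gar1 was 1.38, 1.44 and 2.18, largest in replicate 3. A 45 bp stretch of Dkc1 is shared with Mpp1 and a 44 bp stretch of Nhp2 with Rmnd5b, each on the opposite strand. Dkc1, Mpp1, Nhp2 and Rmnd5b had whole counts in every replicate. Whether counting used strand is not stated, so the origin of reads from these stretches is uncertain. Gm25520, a small nucleolar RNA gene within Dkc1, had 0 counts in every replicate.

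**Figure D3:**
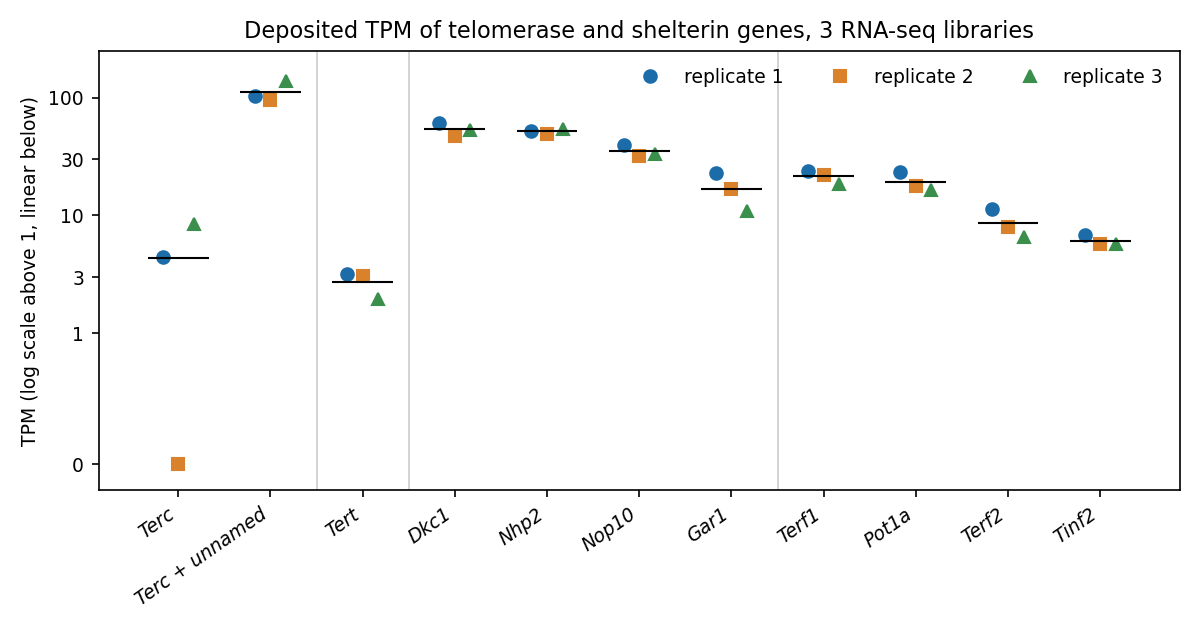
Deposited TPM (y axis, log scale above 1 and linear below) of the 10 members and of Terc summed with the unnamed identifier (x axis), in replicates 1 (circles), 2 (squares) and 3 (triangles), with the mean as a bar and vertical lines between the RNA, Tert, the H/ACA proteins and shelterin. The Terc record spans 0 to 8.46 TPM while the sum lies between 96.3 and 138.3, and the 4 shelterin genes lie below Dkc1, Nhp2 and Nop10 in every replicate.

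Among shelterin genes, the telomere repeat binder Terf1 (ENSMUSG00000025925, chromosome 1, 15805646 to 15844052, plus strand) was the highest. It had 23.9, 22.1 and 18.6 TPM in replicates 1, 2 and 3, a mean of 21.5 ± 2.71 TPM (SD, n = 3). By CPM its replicates were close, at 80.3, 82.6 and 81.0. Pot1a (ENSMUSG00000029676, chromosome 6, 25743737 to 25809246, minus strand), which binds the overhang, had 23.4, 17.9 and 16.5 TPM, a mean of 19.3 ± 3.67 TPM (SD, n = 3). The 2 ranges overlap, although Terf1 was above Pot1a in 3 of 3 libraries.

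Terf2 (ENSMUSG00000031921, chromosome 8, 107069400 to 107096547, minus strand), which binds the same repeats as Terf1 and protects ends from being joined, had 11.4, 7.93 and 6.60 TPM, a mean of 8.64 ± 2.47 TPM (SD, n = 3). Replicate 1 was the highest. Tinf2 (ENSMUSG00000007589, chromosome 14, 55674689 to 55681820, minus strand), the bridge between the DNA binders, had 6.79, 5.69 and 5.71 TPM, a mean of 6.06 ± 0.63 TPM (SD, n = 3). Its span overlaps that of Gmpr2, at 3.58 ± 0.64 TPM (SD, n = 3), by 4512 bp on the opposite strand. Both genes had whole counts in every replicate, but the use of strand is not stated, so the origin of reads from the overlap is uncertain.

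Terf1 exceeded Terf2 by 1.01, 1.37 and 1.36 in replicates 1, 2 and 3, a mean of 1.25 ± 0.21 in log2(TPM + 1) (SD, n = 3). Their ranges do not overlap. The mouse has 2 POT1 genes, and Pot1b (ENSMUSG00000024174, chromosome 17, 55651951 to 55712628, minus strand), the other one, had 2.16, 2.02 and 1.57 TPM. Pot1a exceeded Pot1b by 2.95, 2.65 and 2.77, a mean of 2.79 ± 0.15 in log2(TPM + 1) (SD, n = 3). Both had whole counts in every replicate. The median of the H/ACA proteins exceeded the median of the 4 shelterin members by 1.64 ± 0.24 in log2(TPM + 1) (SD, n = 3). By CPM, which is not scaled by length, this difference was 0.85. Each of these 3 differences was above 0 in 3 of 3 libraries, and the exact sign-flip permutation test (two-sided) gave p = 0.25 for each, the smallest p it can give.

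The full order by mean TPM, reading the Terc record alone, was Dkc1, Nhp2, Nop10, Terf1, Pot1a, Gar1, Terf2, Tinf2, Terc and Tert. Neighbours with no overlap of replicate ranges were Nhp2 with Nop10 and Nop10 with Terf1. The other 7 neighbouring pairs overlapped. Of them, Terf1 over Pot1a, Pot1a over Gar1, Gar1 over Terf2 and Terf2 over Tinf2 held in each library, while Dkc1 over Nhp2, Tinf2 over Terc and Terc over Tert did not. Summing Terc with the unnamed identifier put it first by TPM, without overlap with Dkc1, and then left Tinf2 and Tert as neighbours that did not overlap. By CPM, which is not scaled by length, the sum was not first, at 63.4, 70.7 and 120.6 in replicates 1, 2 and 3. Dkc1 was higher in each replicate, at 218.3, 220.3 and 238.3 CPM, and Tert lower, at 24.0, 19.9 and 20.6.

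A mean of at least 1 TPM was reached by 10 of 10 members, against 19.8% of all 55487 genes and 44.1% of 21974 protein-coding genes. The median of the members' mean TPM was 18.1, and that of the 9683 protein-coding genes at this level was 5.73. Every replicate was at or above 1 TPM in 9 members, the exception being the Terc record in replicate 2. The 9 protein members had whole counts in each replicate, so no fraction of a read was shared with another gene in their counts.

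Variation between replicates beyond what the fitted trend of dispersion gives was tested for every gene with edgeR's goodness-of-fit test on counts (Benjamini-Hochberg adjustment over all genes). The low-count filter kept 9 members and left out the Terc record. Of the 9, 0 passed an adjusted p of 0.05, against 1.84% of the 12577 genes tested. Their adjusted p-values by edgeR ran from 0.953 to 1.00. At an unadjusted p under 0.05 there were also 0 of 9, against 875 of 12577 genes, and DESeq2 size factors gave 0 as well. The smallest unadjusted p was that of Nhp2, 0.0888 by edgeR.

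The Terc call depended on the record and the filter. Without the filter the Terc record was called (edgeR adjusted p = 4.09e-07), where 1.19% of 24217 genes were. Summed with the unnamed identifier, Terc was also called (edgeR adjusted p = 0.0382), where 1.85% of 12577 genes were, with 63.4, 70.7 and 120.6 CPM in replicates 1, 2 and 3. Over the alternatives in which the record alone could be tested, its adjusted p was 4.09e-07 without the filter and 0.344 without replicate 2. The unnamed identifier alone had an edgeR adjusted p of 0.0648. Replicate 3 was the highest in the sum, and so was the bin of shortest genes in that library (median deviation 0.24); the part of length in the Terc call was not tested.

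For the members, each library's distance from the mean over libraries was set beside that of genes of like length, within 0.25 on the log2 scale and averaging 100 counts or more. Values are log2 of TMM-scaled CPM plus 0.5. Nhp2 deviated by -0.33, -0.06 and 0.38 in replicates 1, 2 and 3, where 494 genes of like length had medians of -0.14, -0.02 and 0.17. Nop10 deviated by -0.14, -0.14 and 0.27, beside medians of -0.09, -0.02 and 0.11. Both thus moved the way of genes of their length, and further in every replicate.

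Gar1 went the other way in replicates 1 and 3, and Terf2 in every replicate. Gar1, the shortest protein member, deviated by 0.13, -0.02 and -0.11, where 301 genes of like length had -0.17, -0.02 and 0.19. Terf2 deviated by 0.13, 0.04 and -0.17, where 1319 genes had -0.05, -0.01 and 0.07. Neither was called in the test above, with unadjusted p of 0.774 for Gar1 and 0.667 for Terf2 by edgeR. Tert went the other way in replicates 2 and 3, at -0.15 and 0.06 beside medians of 0.02 and -0.04. Tinf2 and Pot1a did so in replicate 2 alone, where the medians were 0.007 and 0.002. With offsets that remove the length trend, 0 of 9 members were called, beside 105 of 12577 genes.

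**Figure D4:**
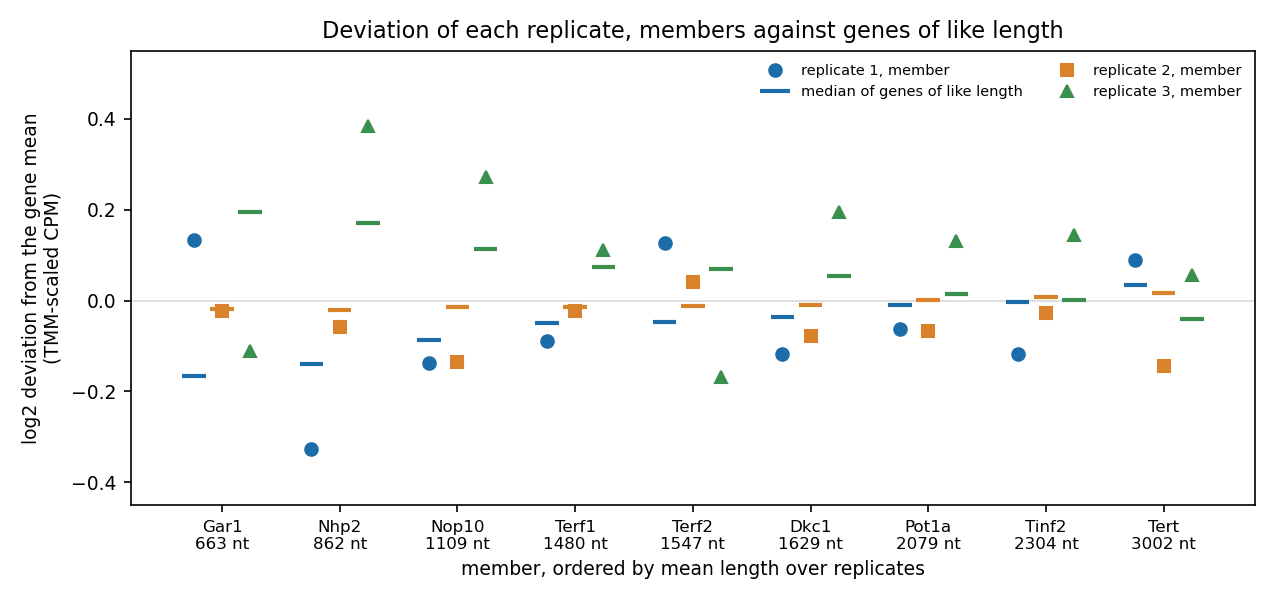
Log2 deviation of each library from the mean over libraries in TMM-scaled CPM (y axis) for the 9 protein members ordered by length in nt (x axis); symbols are members and short bars of the same colour are medians of genes of like length. Nhp2 shows the widest spread, from -0.33 to 0.38, and Gar1 and Terf2 lie above the bar in replicate 1 and below it in replicate 3.

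Other genes of the pathway were read from fixed lists. A mean of at least 1 TPM was reached by 27 of 27 genes for the rest of shelterin, telomerase assembly, end processing, and telomere chromatin and repair. The share over 21974 protein-coding genes was 44.1%. All 27 were tested for variation and 0 were called by edgeR, against 1.84% of the 12577 genes tested. At an unadjusted p under 0.05 there was 1 of 27, against 875 of 12577 genes. The median of mean TPM over the 27 was 6.46.

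The remaining shelterin genes were lower than Terf1 and Pot1a. Terf2ip (RAP1), the partner of Terf2, had 1.83, 1.42 and 1.48 TPM. Its span overlaps that of Gm6793 on the opposite strand by 1604 bp, and its counts were whole in every replicate while those of Gm6793 were not. Acd (TPP1), which brings telomerase to the end and joins Pot1 to Tinf2, had 9.77, 7.25 and 2.44 TPM, from 321, 167 and 63 counts. Replicate 3 was well below the others. Acd was the gene with an unadjusted p under 0.05 (0.00418 by edgeR, adjusted p = 0.148), and it shares 2328 bp with Carmil2 on the opposite strand, at 0.337 TPM.

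For telomerase assembly, 10 of 10 genes reached 1 TPM. The ATPases Ruvbl2 and Ruvbl1, which act on dyskerin during assembly, had 40.4 ± 6.71 and 13.5 ± 0.96 TPM (SD, n = 3). Naf1, the assembly factor that Gar1 replaces, had 8.81, 6.67 and 3.91 TPM, and Shq1, a dyskerin chaperone, 5.94, 5.01 and 6.60. Wrap53 (TCAB1), which takes Terc to Cajal bodies, had 4.78, 3.05 and 3.03 TPM. Parn, which trims the 3′ end of Terc, had 7.66, 5.04 and 3.95 TPM, and Tgs1, which modifies its cap, 9.07, 7.42 and 6.58. Zcchc8, Pinx1 and Tep1 had means of 8.62, 3.97 and 1.07 TPM.

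For end processing, 7 of 7 genes reached 1 TPM. The 3 genes of the CST complex, which helps fill in the C-rich strand, were Ctc1 at 7.71 ± 3.53, Stn1 at 4.82 ± 0.94 and Ten1 at 3.63 ± 0.58 TPM (SD, n = 3). The poly(ADP-ribose) polymerase Tnks2 was the highest, at 38.6 ± 9.90 TPM, and its relative Tnks had 9.68 ± 3.01 TPM (SD, n = 3). The helicase Rtel1 had 10.7 ± 2.48 TPM and the nuclease Dclre1b (Apollo) 2.12 ± 0.59 TPM (SD, n = 3). In telomere chromatin and repair, 7 of 7 reached 1 TPM. Rif1, Atrx and Blm had 45.6 ± 9.04, 19.4 ± 3.62 and 14.9 ± 3.71 TPM (SD, n = 3), Daxx, the histone chaperone that acts with Atrx, 11.1 ± 3.39, and Smarcal1, Slx4 and Zbtb48 from 1.10 to 4.67.

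**Figure D5:**
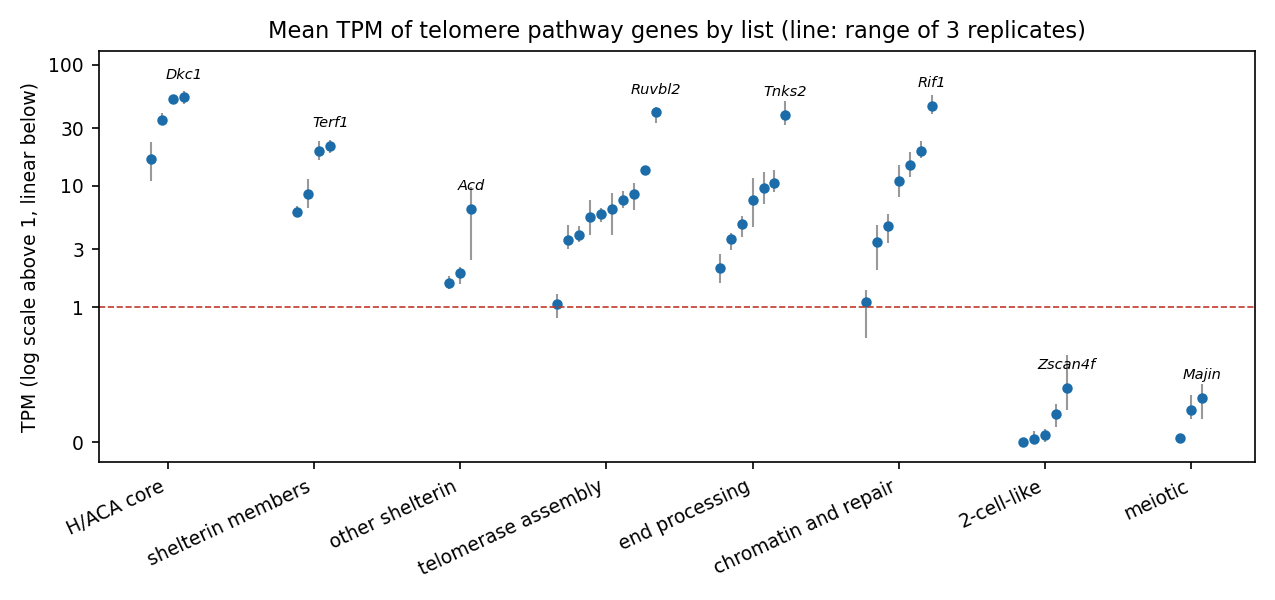
Mean TPM (y axis, log scale above 1 and linear below) of each gene in 8 lists (x axis), with a line from its lowest to its highest replicate and the highest gene of each list named; the dashed line is 1 TPM. Every gene of the first 6 lists has a mean above the line, and the 2-cell-like and meiotic genes lie below it.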

How the data were processed

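RNA-seq of total RNA depleted of ribosomal RNA was read from 3 gene tables, 1 per replicate. Per the submitters' processing notes, STAR and RSEM are among the tools and mm10 is the genome build. Versions, annotation release and strand setting are not given in the sources used here. Per the file headers, the authors deposited estimated counts (expected counts) without normalization, and TPM scaled by effective length. Per the labels' protocols, libraries were directional.

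Names and coordinates came from GENCODE vM21 (GRCm38), which matched 55227 of 55487 identifiers. The 260 unmatched held 0.0180% of counts. Terc sequences are those of GENCODE vM21 transcripts, and the alternative Terc length is that of RefSeq (GRCm38.p6). They were aligned with blastn 2.17.0.

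Estimated counts were rounded for edgeR 4.0.16 (R 4.3.3): filterByExpr, TMM, an intercept-only fit with trended dispersion and the goodness-of-fit test, which was tested on simulated data. DESeq2 1.42.0 supplied size factors for an alternative. Other steps used Python 3.11.15. Wilson intervals are at 95%, and the floor is 3 counts. The named genes are the members, the fixed lists, and genes that overlap a member or start within 1000 bp of it. Genes that share fractional counts with Terc were named after their values were seen. Members and lists were chosen with earlier results of these data known. Alternatives changed normalization, filter, dispersion, unit, pseudocount (0.1 for 1), TPM denominator and replicates used.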

Additional observations from a re-analysis of the deposited data

How the results depend on the processing

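The results were recomputed under 125 alternatives, 100 planned and 25 chosen after seeing the data. The difference between Terc and Tert was the result that reversed. From 0.01 in log2(TPM + 1) it became -0.82 with a pseudocount of 0.1, -2.76 with log2(CPM + 1), -0.32 with genes of effective length under 100 nt left out of the TPM total and -0.0245 with mean effective lengths. Leaving out each replicate gave -0.81 to 1.03, lowest without replicate 3 and highest without replicate 2, where Terc is listed at 0. The number of members called variable was 0 in the fit reported and 1 both without the filter and with the unnamed identifier added; in each case the member was Terc, which the filter otherwise left out or which was then a sum.

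The number of members with a mean of at least 1 TPM was 8 at a limit of 5 TPM and 9 when every replicate had to reach 1. The share over all genes was computed for a mean of at least 1 TPM alone, so neither count has a background. The differences of the H/ACA proteins from shelterin, Terf1 from Terf2 and Pot1a from Pot1b kept their direction in every alternative run. Genes called variable numbered 232 in all, 105 with length offsets, and 89, 63 and 93 without replicates 1, 2 and 3. Over the fits that left out 1 replicate the 3 differences were 1.51 to 1.76, 1.19 to 1.37 and 2.71 to 2.86. Leaving short genes out of the total raised log2 TPM by 1.33, 1.55 and 1.47 in replicates 1, 2 and 3, and a total of protein-coding genes and Terc alone by 2.13, 2.43 and 2.53. Each moved 9 of the 10 members' levels by more than 1 SD. Under these totals 3 and 3 of 8 differentiation markers, 1 and 2 of 5 genes of the 2-cell-like list and 0 and 2 of 3 meiotic genes reached a mean of 1 TPM, against 0 as deposited. Depth limits genes at or under 3 counts, which are 0.263, 0.464 and 0.518 CPM in replicates 1, 2 and 3.

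No paired analysis was possible because a single group was analysed, so replicate numbers pair nothing across groups. This concerns the pairing of samples from different groups alone. Differences between genes were taken within each library, and the sign-flip test was run on those differences.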

Other observations

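Genes linked to telomeres in other settings were low by deposited TPM. Of 5 genes of the 2-cell-like state, in which Zscan4 proteins lengthen telomeres in a small share of embryonic stem cells, 0 reached a mean of 1 TPM. Zscan4f had 0.65, 0.24 and 0.32 TPM, Zscan4c 0.28, 0.24 and 0.11 and Zscan4d 0.05, 0 and 0.10 in replicates 1, 2 and 3. Their counts were fractional and belong to a multigene family, so their split is uncertain. Tcstv1 had 0 counts in every replicate and Tcstv3 had 0, 1 and 0. In bulk RNA, few cells with a high level and many with a low one cannot be told apart.

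The meiotic telomere genes Terb1, Terb2 and Majin, which tether telomeres to the nuclear envelope in germ cells, had means of 0.03, 0.237 and 0.327 TPM. None of the 3 reached 1 TPM, and Terb1 had 2, 2 and 1 counts, at or under the floor of 3 counts.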
